A study of Harpegnathos saltator with 19 samples.

Results

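Juvenile hormone III (JH3) was compared with its DMSO control in the central brain of workers of the ant Harpegnathos saltator. The comparison used 12 of the 19 RNA-seq libraries of the series, 7 from ants injected with 100 ng of JH3 and 5 from ants injected with DMSO. The other 7 libraries came from ants given 100 ng of 20-hydroxyecdysone (20E), which triggers moulting in insects. Each library was made from the brain of a single worker, dissected 10 h after an injection into the head. No other allele, strain or age is given in the labels. The labels state a glucose solution as the vehicle of the hormones and name the control group DMSO. They do not make clear whether the control shared the vehicle of the hormones. If it did not, effects of JH3 and of the vehicle cannot be told apart in this comparison. Replicates 1 to 3 of every group carry the run label 190514 and the later replicates the run label 200212, so each run holds all groups. Of the 14001 genes listed, 9381 reached 1 FPKM in at least 5 libraries and were tested. FPKM is a fragment number per gene, scaled for the length of the gene and the depth of the library.

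Juvenile hormone is a sesquiterpenoid made in the corpora allata, paired glands near the insect brain. In the fly it enters cells and binds the receptor Methoprene-tolerant, a transcription factor of the bHLH-PAS family, which then induces Kr-h1, a zinc finger factor. In larvae the hormone holds back metamorphosis. In adult insects it acts on reproduction, and in social insects its level differs between castes and ages. The functions stated below for a gene are those of the fly gene of the same symbol, unless another species is named.

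The libraries held 14.05 to 26.09 M reads on genes (median 18.31 M). In all, 4779 genes (50.9%) differed between the run labels in limma, and the run was therefore a term of the fit. JH3 replicate 1 and 20E replicate 6 stood apart from the rest, with median correlations of 0.904 and 0.91 with the other libraries against 0.926 to 0.955 among those others. Neuron markers were high in all libraries and summed to 1010 to 1340 FPKM in DMSO and 1000 to 1350 FPKM in JH3 over 13 genes. None of the 13 was called between these groups by limma or by voom on reads, and 0 had an unadjusted p under 0.05. The markers cn and trpl of the eye and Orco and Ir8a of olfactory neurons were below 1 FPKM in every library. Other markers of tissues around the brain were present. The 15 eye markers summed to 111 to 563 FPKM in DMSO and 117 to 522 FPKM in JH3. The 9 markers of fat body and haemolymph summed to 1840 to 2370 FPKM in DMSO and 1560 to 2160 FPKM in JH3.

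Few genes differed between JH3 and DMSO, and most of the differences were small. By limma with Benjamini-Hochberg adjustment over the 9381 genes, 87 genes (0.927%) passed an adjusted p of 0.05 and are called here. Of these 59 were higher in JH3 (0.629% of those tested) and 28 lower (0.298%), while 778 genes (8.29%) had an unadjusted p under 0.05. Among the rises 16 were of 2-fold or more, and among the falls 1 was. A further 36 rises and 17 falls lay between 1.5-fold and 2-fold, and 7 rises and 10 falls were under 1.5-fold. The median log2 fold change was 0.75 among the called rises and -0.63 among the called falls. The called genes had more reads than the rest, with a median of 2080 reads per gene against 577 over all genes tested. The called gene with the fewest had 46. All 87 were protein-coding genes. The 417 long non-coding RNA genes tested gave no call by limma on the FPKM values or by voom on reads, and 15 had an unadjusted p under 0.05.

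**Figure D1:**
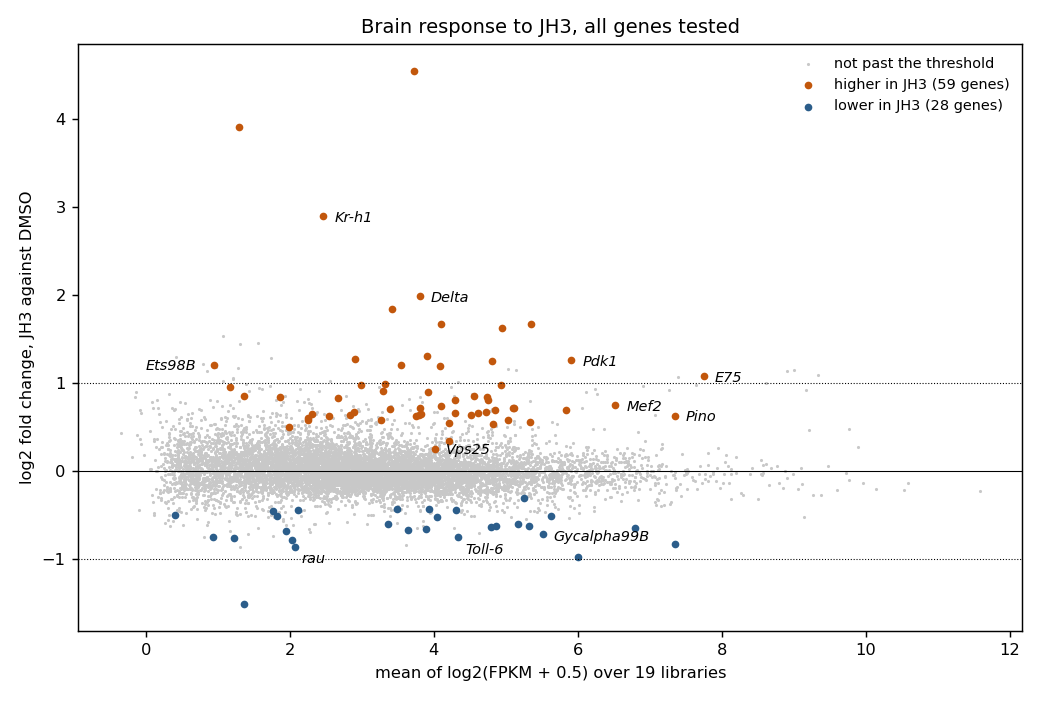
Mean level of each of 9381 genes over 19 libraries (horizontal axis, log2(FPKM + 0.5)) against its log2 fold change, JH3 against DMSO (vertical axis); coloured points are called genes, dotted lines mark a 2-fold change, and 11 called genes are labelled. Most of the 59 rises and 28 falls lie between the dotted lines, and all but 1 of the falls do.

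The spread among single ants is given for the called genes as a description, since the calls were chosen on these libraries. The 7 JH3 values were beyond the DMSO mean without exception in 86 of the 87 called genes, and neur had 6 such values. The sign of all 87 was shared by the runs. In 56 called genes no JH3 library overlapped a DMSO library, against 1.13% of all genes tested. These were 36 rises, with 0.576% of all genes so separated upwards, and 20 falls, with 0.554% downwards. The other 31 overlapped when the runs were pooled, but 25 of them did not overlap within either run. Counted within runs, 81 called genes were free of overlap, against 2.48% of all genes. The lowest of the 7 JH3 values came from the earlier run in 48 of the 59 rises. JH3 replicate 3 was the lowest of the 7 in 30 of the 59 rises and replicate 6 the highest in 28. Relative to the DMSO mean of its own run, the median log2 difference of the rises ran from 0.63 to 1.0 over the 7 JH3 libraries, and that of the falls from -0.73 to -0.43. No gene had a JH3 effect that differed between runs after adjustment (limma, 0 genes, with 450 at an unadjusted p under 0.05).

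Kr-h1, the factor that juvenile hormone induces, was listed at 2.34, 1.49, 0.405, 3.09 and 1.63 FPKM in the DMSO libraries and at 5.85 to 26.2 FPKM in JH3 (median 19.5). The groups did not overlap. Besides Kr-h1 and the bHLH repressors Sidpn, cwo and hry (log2 1.68, 1.19 and 0.75), 6 of 52 factors of neural and patterning development rose and 1 fell. Their median log2 fold change was 0.08, against 0.003 over all genes tested. Of all genes tested 0.629% were called as higher and 0.298% as lower. The 6 rises were klu, Glut4EF, Ets98B, crp, Mef2 and chinmo, and the fall was nab.

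Glut4EF, a zinc finger gene of the fly wing named for a human factor that binds an enhancer of a glucose transporter gene, had 14.8, 19.3, 12.9, 21.9 and 28.3 FPKM in DMSO and 39.0 to 62.6 FPKM in JH3 (median 46.5). The lowest JH3 library lay above the highest DMSO library. The log2 fold change was 1.26 ± 0.17 (SE, limma adjusted p = 0.00038), and 1.62 in the earlier run against 0.89 in the later. Ets98B, an ETS factor gene, was low in every library, at 0.471, 0.722, 0.541, 0.798 and 0.815 FPKM in DMSO and 1.75 to 2.41 FPKM in JH3 (median 2.27). It did not overlap either (1.21 ± 0.12, adjusted p = 1.53e-05). klu, a zinc finger factor of neural precursors, had 5.26, 5.12, 4.14, 5.65 and 9.23 FPKM in DMSO and 9.61 to 21.6 FPKM in JH3 (median 16.8; 1.27 ± 0.13, adjusted p = 1.47e-05). Its lowest JH3 value was only slightly above the DMSO library with the highest level.

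Mef2, a MADS-box factor of muscle that is also present in neurons, had 70.8, 53.6, 55.8, 100 and 118 FPKM in DMSO. In JH3 it ranged from 90.4 to 188 FPKM (median 142). The groups overlapped only because the later run was higher in both, and within each run every JH3 library exceeded every DMSO library. The log2 fold change was 0.75 ± 0.13 (adjusted p = 0.00509, within the runs 0.86 and 0.61). The 14 muscle markers summed to 71.8 to 124 FPKM in DMSO and 75.3 to 251 FPKM in JH3, with no call among the 13 tested (median log2 fold change 0.19, 12 above 0). Their part in the level of Mef2 was not tested.

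Smox is the Smad protein that carries activin signals to the nucleus. Its levels were 19.8, 20.3, 16.4, 23.5 and 28.2 FPKM in DMSO and 30.6 to 54.9 FPKM in JH3 (median 42.7), without overlap. The log2 fold change was 0.84 ± 0.09 (adjusted p = 1.47e-05), with 0.81 and 0.88 in the runs. In the BMP and activin list it was the only one of 16 genes called, and the list median was -0.03. The called fall nab had been dropped from this list, with results known. The activin ligand gene daw had 1.54 ± 0.703 FPKM in DMSO (SD, n = 5) and 3.28 ± 1.15 in JH3 (n = 7), a log2 difference of 0.99 ± 0.26 that did not pass (limma adjusted p = 0.0927). Without JH3 replicate 1 and 20E replicate 6 the list had 2 calls.

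foxo encodes the factor that insulin signalling keeps out of the nucleus. It had 3.6, 3.99, 3.67, 5.47 and 7.1 FPKM in DMSO and 7.06 to 11.2 FPKM in JH3 (median 9.26). The ranges met at 7.06 and 7.1 FPKM, and did not overlap within a run (0.84 ± 0.13, adjusted p = 0.00135). Pdk1, the kinase that activates Akt in the same pathway, had 32.7, 37.7, 26.4, 27.5 and 42.5 FPKM in DMSO and 51.5 to 112 FPKM in JH3 (median 92.0; 1.26 ± 0.17, adjusted p = 0.000282). The third call of the insulin, TOR and energy sensing list was Myc, a bHLH leucine zipper transcription factor that promotes cell growth and ribosome production. Myc had 1.25, 2.43, 1.36, 1.86 and 1.78 FPKM in DMSO and 2.1 to 4.48 FPKM in JH3 (median 4.21), and overlapped in the earlier run (0.84 ± 0.15, adjusted p = 0.00537). These were 3 of 25 genes tested, against 0.629% of all genes tested called as higher, and none was lower. The other 22 did not pass, and the list median was -0.06. The lowest p among those without a call belonged to raptor, a TOR complex gene (-0.44 ± 0.13, adjusted p = 0.175). The insulin-like peptide gene ILP-2 had 10.6 ± 1.97 FPKM in DMSO and 7.38 ± 1.25 in JH3 (-0.44 ± 0.13, adjusted p = 0.188). Carbohydrate genes (23) and lipid genes (24) had no call by limma or voom once the called factor gene Glut4EF had been dropped from the carbohydrate list, with medians of -0.03 and -0.04, and 0 and 2 members at an unadjusted p under 0.05. Myc was also the only call among 28 genes of the cell cycle and replication.

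Psq, chinmo, tna and crp rose by less than 2-fold. Psq, a BTB factor that binds GA-rich DNA, had 16.5, 17.8, 12.5, 20.3 and 26.8 FPKM in DMSO and 20.1 to 40.0 FPKM in JH3 (median 31.9; 0.67 ± 0.12, adjusted p = 0.00537). chinmo, a BTB zinc finger factor that sets neuron identity by birth order, had 7.37, 7.34, 6.14, 9.82 and 11.7 FPKM in DMSO and 9.79 to 16.8 FPKM in JH3 (median 15.3; 0.72 ± 0.14, adjusted p = 0.0142). Both overlapped in the pooled values and not within a run. tna, a SUMO-ligase-like protein that works with Brahma chromatin remodelling complexes, had 11, 13.2, 8.58, 15.4 and 20.9 FPKM in DMSO and 16.6 to 38.3 FPKM in JH3 (median 29.5; 0.86 ± 0.15, adjusted p = 0.00359). It overlapped across the runs and not within them, and was the only call among 47 genes of chromatin and cofactors, whose median was -0.05. Before members were dropped, with results known, this list had 48 tested genes and 2 called rises. crp, a bHLH leucine zipper factor of tracheal growth, had 12.0, 12.4, 11.9, 14.7 and 18.7 FPKM in DMSO and 19.4 to 30.9 FPKM in JH3 (median 26.2), without overlap (0.81 ± 0.14, adjusted p = 0.00367). The chinmo call ended without DMSO replicate 3 or 4 (0.66 and 0.72, adjusted p = 0.0508 to 0.0539).

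**Figure D2:**
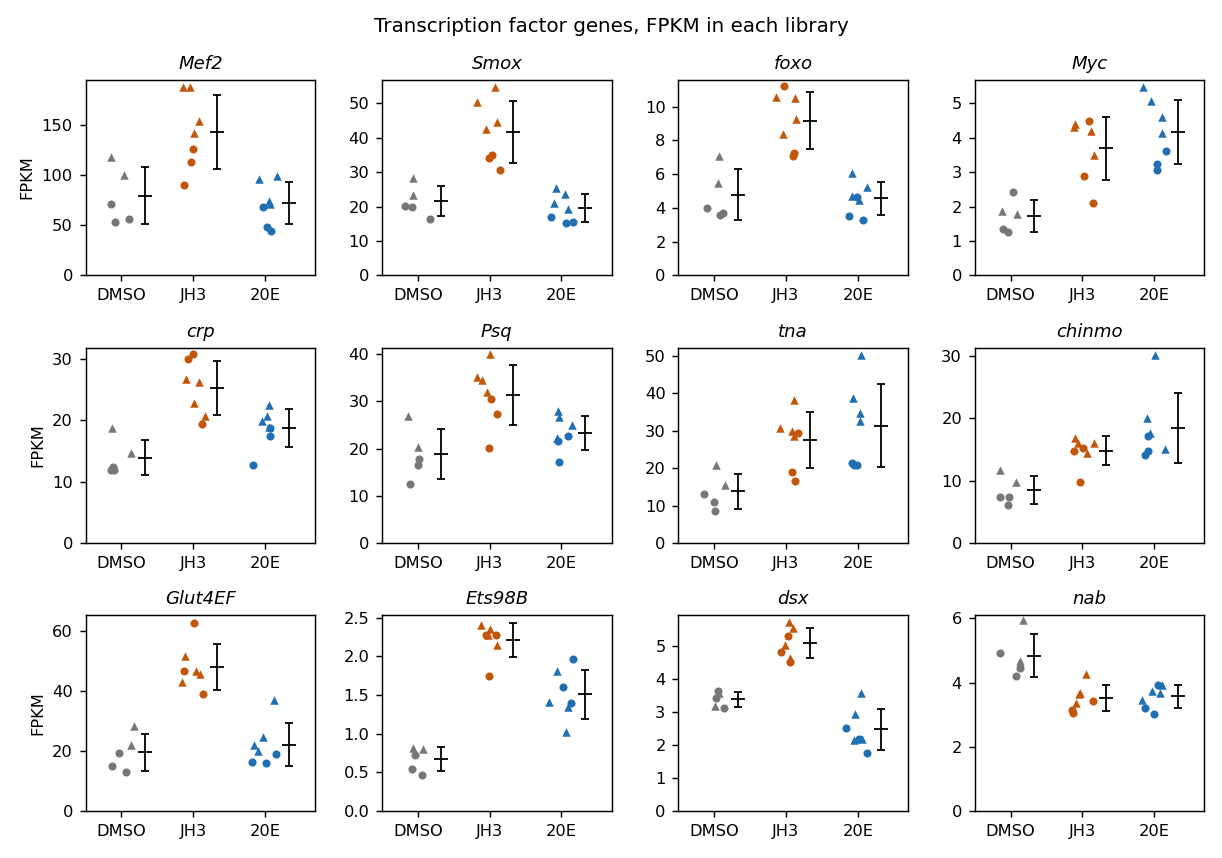
FPKM (vertical axes, starting at 0) of 12 transcription factor and cofactor genes in every library of DMSO, JH3 and 20E; circles are run 190514, triangles run 200212, and the bars give mean ± SD. JH3 lies above DMSO in 11 panels and below it in that of nab. In all panels but those of Myc, dsx and nab the triangles lie higher than the circles in DMSO.

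dsx, the sex differentiation factor, rose by 1.41-fold, from 3.42, 3.62, 3.11, 3.56 and 3.19 FPKM in DMSO to 4.52 to 5.73 FPKM in JH3 (median 5.03). The groups did not overlap, yet the call was narrow (0.50 ± 0.11, adjusted p = 0.0361). It was lost on removal of DMSO replicate 1, 3, 4 or 5 (0.45 to 0.52), of any JH3 library other than replicate 4 (0.47 to 0.52), or of 20E replicate 2 (0.50). nab, a cofactor of transcription, was lower in JH3. It had 4.21, 4.93, 4.44, 4.66 and 5.95 FPKM in DMSO and 3.06 to 4.28 FPKM in JH3 (median 3.44), and the highest JH3 library lay just above the lowest DMSO library (-0.44 ± 0.08, adjusted p = 0.00802).

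Genes of the ecdysone response rose in part. In the list of 18 tested genes 4 were called, all higher, against 0.629% of all genes tested called as higher. They were Oatp74D, which encodes the importer of ecdysone, the nuclear receptor genes E75 and Hr4, and chinmo. E75 had 74.4 ± 11.5 FPKM in DMSO (SD, n = 5), 170 ± 45.2 in JH3 (n = 7) and 619 ± 137 in 20E (n = 7). In limma JH3 differed by 1.08 ± 0.13 from DMSO (SE, adjusted p = 0.000132) and by -1.88 ± 0.12 from 20E (adjusted p = 4.74e-09). Of the 18 members 17 had a log2 fold change above 0, against 50.8% of all genes, and the list median was 0.25. Hr4 had 0.855, 1.13, 0.76, 1.42 and 1.57 FPKM in DMSO and 1.54 to 2.57 FPKM in JH3 (median 2.37; 0.63 ± 0.14, adjusted p = 0.0322). The values met between 1.54 and 1.57 FPKM, and the level was low beside the 33.1 ± 8.22 FPKM of the 20E libraries (SD, n = 7). The Hr4 call was lost on removal of DMSO replicate 1, 3 or 4, or of JH3 replicate 1, 2, 5, 6 or 7 (0.56 to 0.65). Neither gene of the ecdysone receptor pair was called, with Ecr at 6.13 ± 0.649 FPKM in DMSO and 6.96 ± 0.948 in JH3, and usp at 34.0 ± 5.17 and 48.4 ± 10.1 (log2 0.14 ± 0.11 and 0.50 ± 0.17, adjusted p = 0.687 and 0.318). In the juvenile hormone list Kr-h1 and hry were the 2 calls among 11 genes (median 0.26). The gene of an enzyme of juvenile hormone synthesis, jhamt, had 4.77, 0.055, 4.55, 0.0221 and 4.1 FPKM in DMSO. In JH3 it had 3.15 to 8.44 FPKM (median 5.28), and in 20E 0.0138 to 5.58 FPKM (median 0.039). The groups JH3 and DMSO overlapped (log2 1.44 ± 0.75, adjusted p = 0.642), and this fold change includes DMSO replicates 2 and 4, which were near 0.

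In the Notch list, which also holds bHLH repressors, the calls were Delta, Sidpn, cwo, hry and neur. These were 5 of 25 tested, against 0.629% of all genes tested called as higher, with a list median of 0.00. Of these cwo is also a member of the clock list. The called rise klu had been dropped from this list, with results known. The smallest of the 5 rises was neur, the ubiquitin ligase that activates Delta. It had 23, 26.0, 19.6, 38.3 and 46.6 FPKM in DMSO and 30.3 to 76.4 FPKM in JH3 (median 57.7; 0.57 ± 0.12, adjusted p = 0.0216). The groups overlapped in the pooled values and not within a run. The call was lost on removal of DMSO replicate 1, 3 or 4, or of JH3 replicate 2 (0.51 to 0.57).

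The other called rises with a symbol were also under 2-fold. meng, a kinase needed for long-term memory in the fly, had 24.1, 27.9, 19.8, 24.9 and 21.2 FPKM in DMSO and 33.3 to 48.6 FPKM in JH3 (median 36.7). The groups did not overlap (0.70 ± 0.13, adjusted p = 0.0101), and the call ended without DMSO replicate 5 (0.64, adjusted p = 0.0502). mnb, a kinase of the DYRK family that is needed for normal brain size, had 13.4, 13, 13.2, 14.5 and 17.3 FPKM in DMSO and 14.5 to 20.8 FPKM in JH3 (median 19). It rose by only 1.27-fold (0.34 ± 0.08, adjusted p = 0.0378) and overlapped in the pooled values. Its call was lost on removal of DMSO replicate 1, 2, 3 or 4, of JH3 replicate 1, 2, 4, 5 or 6, or of 20E replicate 3 or 5 (0.29 to 0.35). Atg17, a scaffold of the kinase complex that starts autophagy, had 17.4, 22.2, 14.5, 29.8 and 31.9 FPKM in DMSO and 25.4 to 50.6 FPKM in JH3 (median 43.7; 0.72 ± 0.14, adjusted p = 0.0144). Its ranges overlapped across the runs only, and the call ended without DMSO replicate 3 (0.63, adjusted p = 0.0537).

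wech, a TRIM protein that links integrins to the cytoskeleton, had 22.9, 24.1, 19.4, 19.7 and 23.1 FPKM in DMSO and 29.2 to 48.3 FPKM in JH3 (median 33.5; 0.67 ± 0.10, adjusted p = 0.000818). Pax, the gene of the focal adhesion protein paxillin, had 10.4, 12.7, 8.8, 13.2 and 13.1 FPKM in DMSO and 14.6 to 21.6 FPKM in JH3 (median 18.8; 0.63 ± 0.10, adjusted p = 0.00244). Both adhesion genes were free of overlap, and both calls held in all 12 fits that left out a JH3 or DMSO library. dnr1, a RING ubiquitin ligase that restrains the immune caspase Dredd, had 22.1, 22.5, 18.8, 28.3 and 26.1 FPKM in DMSO and 24.0 to 38.9 FPKM in JH3 (median 38.4; 0.54 ± 0.10, adjusted p = 0.00537). Its lowest JH3 value came from replicate 1 and lay inside the DMSO range. Vps25, a subunit of the ESCRT complex that sorts membrane proteins for breakdown, had the smallest called rise. It went from 16.4, 13.7, 16.8, 14.2 and 13.5 FPKM in DMSO to 16.3 to 19.1 FPKM in JH3 (median 17.6), which is 1.20-fold (0.26 ± 0.06, adjusted p = 0.0417). The Vps25 call was lost on removal of DMSO replicate 2, 4 or 5, of any JH3 library, or of 20E replicate 1, 2, 3 or 5 (0.22 to 0.27).

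Pino was the most abundant of the small rises and is known in the fly from a mutant with an altered response to odours. It had 135, 148, 127, 135 and 144 FPKM in DMSO and 162 to 289 FPKM in JH3 (median 224), without overlap (0.63 ± 0.13, adjusted p = 0.0251). The call was lost on removal of DMSO replicate 3, 4 or 5, or of JH3 replicate 1, 4 or 6 (0.57 to 0.63). Traf4, an adaptor of TNF receptor signalling, was low, at 0.707, 1.04, 0.862, 0.835 and 1.07 FPKM in DMSO and 1.6 to 2.66 FPKM in JH3 (median 2.07; 0.86 ± 0.15, adjusted p = 0.0044). It did not overlap. In the immune list of 18 genes Traf4 was the rise and Toll-6 the fall, with a median of 0.08.

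The called falls with a symbol numbered 10, of which nab is given above. Toll-6, a Toll-family receptor of neurons that guides axons and binds neurotrophins, had 31.8, 34.4, 25.1, 26.4 and 32.8 FPKM in DMSO and 15.2 to 21.0 FPKM in JH3 (median 16.6). No library overlapped, and the fall was alike in the runs (-0.75 ± 0.10, adjusted p = 0.000184, -0.77 and -0.74). rau, a protein with Ras association domains that sustains receptor tyrosine kinase signals in glia, had 4.49, 6.32, 5.01, 5.97 and 5.36 FPKM in DMSO and 2.11 to 3.53 FPKM in JH3 (median 3.06; -0.86 ± 0.13, adjusted p = 0.00124). spri, an effector of Ras that activates the endocytic GTPase Rab5, had 7.79, 10.2, 8.83, 13.1 and 16.2 FPKM in DMSO and 4.65 to 8.31 FPKM in JH3 (median 7.37; -0.66 ± 0.15, adjusted p = 0.0417). It overlapped in the earlier run, and the call was lost on removal of any DMSO library but replicate 1, of JH3 replicate 1, 4, 5, 6 or 7, or of 20E replicate 2, 3, 4 or 5 (-0.70 to -0.55). These were the 2 falls among 40 genes of receptor tyrosine kinase, Ras and MAP kinase signalling, in which Ets98B was the only rise and the median was -0.06. The fall of spri was not called without JH3 replicate 1 and 20E replicate 6.

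Among 35 genes of G-protein and cyclic nucleotide signalling 2 fell and none rose (median -0.06), against 1 call by voom and 3 falls without JH3 replicate 1 and 20E replicate 6. Gycalpha99B, a subunit of the soluble guanylate cyclase that nitric oxide activates, had 66.7, 76.0, 72.7, 61.5 and 84.7 FPKM in DMSO and 35 to 57.3 FPKM in JH3 (median 42.1). The groups did not overlap (-0.71 ± 0.12, adjusted p = 0.00431). Gprk1, a kinase that turns off G-protein coupled receptors, had 20.4, 23.8, 21.7, 21.1 and 27.9 FPKM in DMSO and 15.2 to 18.1 FPKM in JH3 (median 16.8). It fell by 0.44 on the log2 scale (± 0.10, adjusted p = 0.0462) without overlap. The Gprk1 call was lost on removal of any DMSO library, of any JH3 library other than replicate 1, or of 20E replicate 1, 2, 3, 5 or 7 (-0.49 to -0.37). loco, a regulator of G-protein signals that is also a glial marker, was close to the threshold at 10.5 ± 1.17 FPKM in DMSO and 8.28 ± 1.6 in JH3 (-0.39 ± 0.09, adjusted p = 0.0607).

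Both calls among 16 glial markers were falls. moody encodes the receptor of the glia that form the blood-brain barrier. It had 34.3, 43.6, 43.0, 30.0 and 28.0 FPKM in DMSO and 14.6 to 29.4 FPKM in JH3 (median 18.2; -0.63 ± 0.13, adjusted p = 0.0222). The ranges overlapped across the runs and not within them. Gat-a, a transporter that clears the transmitter GABA, had 49.5, 60.3, 49.4, 63.5 and 48.0 FPKM in DMSO and 21.6 to 44.8 FPKM in JH3 (median 34.1), without overlap (-0.62 ± 0.14, adjusted p = 0.0398, and -0.35 and -0.92 within the runs). For moody the call was lost on removal of any DMSO library but replicate 1 (-0.62 to -0.58). For Gat-a it was lost on removal of DMSO replicate 2, 4 or 5, of JH3 replicate 1, 4, 5, 6 or 7, or of 20E replicate 2 or 3 (-0.64 to -0.50), and also when JH3 replicate 1 and 20E replicate 6 were both left out. Of the 16 glial markers 3 had a log2 fold change above 0 and the median was -0.10. The glutamine synthetase gene Gs2 had 732 ± 107 FPKM in DMSO and 501 ± 141 in JH3 (-0.52 ± 0.16, adjusted p = 0.184). The log2 fold change of repo, the factor that defines glia in the fly, was -0.30 ± 0.11 (adjusted p = 0.346, chosen after its values were seen). The 16 markers summed to 1110, 1410, 1300, 1160 and 1030 FPKM in DMSO and to 654 to 1230 FPKM in JH3 (median 817). The JH3 sums were 1040, 1230 and 1070 FPKM in the earlier run and 760, 654, 815 and 817 FPKM in the later. The sums of JH3 and DMSO overlapped in the earlier run and not in the later. In 20E the 16 markers summed to 751 to 1360 FPKM (median 932). A sum gives most weight to abundant genes, and Gs2 alone had 620 to 887 FPKM in DMSO and 341 to 747 FPKM in JH3. In whole-brain RNA, fewer cells of a type and less RNA per cell cannot be told apart, and the part of the glial share in the falls was not tested.

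Chsy, the synthase of chondroitin sulfate chains, had 10.4, 12.5, 13, 11.1 and 11.4 FPKM in DMSO and 7.2 to 9.98 FPKM in JH3 (median 8.14), without overlap (-0.43 ± 0.08, adjusted p = 0.0108). The call ended without DMSO replicate 4 or 5 (-0.41 and -0.40, adjusted p = 0.0507 to 0.0533). It was the only call among 32 genes of proteoglycans and extracellular matrix, whose median was -0.11. Without JH3 replicate 1 and 20E replicate 6 the list had 3 calls, Chsy and sgl lower and Sulf1, a heparan sulfatase gene, higher. The list held 2 more genes of sulfated sugar chains close to the threshold. These were sgl, the enzyme that makes UDP-glucuronate for such chains (-0.45 ± 0.11, adjusted p = 0.0706), and Hs3st-B, a heparan sulfotransferase (-0.38 ± 0.10, adjusted p = 0.0797, named after its values were seen). ABCD, a transporter of the peroxisomal membrane, had 3.53, 3.9, 4.22, 3.69 and 3.88 FPKM in DMSO and 1.46 to 2.84 FPKM in JH3 (median 2.28), without overlap (-0.68 ± 0.15, adjusted p = 0.0281). It was the only call among 16 peroxisome genes, whose median was 0.07. Its call was lost on removal of any DMSO library but replicate 1, or of JH3 replicate 1 or 5 (-0.69 to -0.57).

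**Figure D3:**
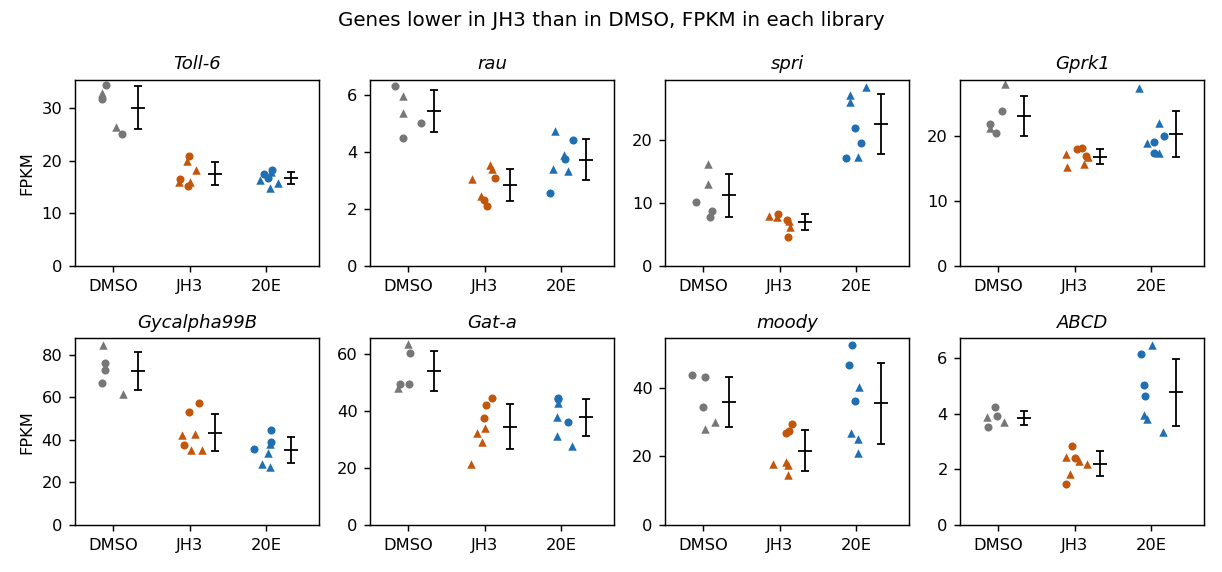
FPKM (vertical axes, starting at 0) of 8 genes lower in JH3 than in DMSO, in every library of DMSO, JH3 and 20E; circles are run 190514, triangles run 200212, and the bars give mean ± SD. In Toll-6, Gycalpha99B, rau and Gat-a the 20E libraries also lie low. By contrast, spri lies at 7.07 ± 1.26 FPKM in JH3 and 22.5 ± 4.73 in 20E.

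The called genes without a symbol numbered 46 of 87, and no function is stated for them. LOC105186969 and LOC105192299 had the highest folds of all genes tested. The first went from 2.46 to 5.17 FPKM in DMSO to 66.6 to 129 FPKM in JH3 (log2 4.55 ± 0.21), the second from 0.207 to 0.449 FPKM to 8.28 to 18 FPKM (3.91 ± 0.16). In 20E their log2 fold changes were 0.31 (adjusted p = 0.911) and 0.61 (adjusted p = 0.0416). LOC112589018, LOC105180846 and LOC105186311 followed with log2 fold changes of 1.84 ± 0.19, 1.62 ± 0.23 and 1.31 ± 0.19, and none of them overlapped. The adjusted p of these 5 rises ran from 2.78e-11 to 0.000718. Of the falls LOC105187714 was the only one of 2-fold or more, from 3.75, 3.62, 3.44, 2.79 and 3.22 FPKM in DMSO to 0.612 to 1.78 FPKM in JH3 (median 0.655; -1.51 ± 0.25, adjusted p = 0.00287). The next were LOC109504109 (-0.98 ± 0.20), LOC105181733 (-0.83 ± 0.13), LOC105191907 (-0.78 ± 0.14) and LOC105183423 (-0.76 ± 0.13), with adjusted p from 0.00158 to 0.0146. LOC105181733 was the most abundant of these, at 211 ± 38.6 FPKM in DMSO and 115 ± 26.9 in JH3. The call of LOC109504109 ended without DMSO replicate 4 or 5 (-0.97 and -0.88).

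The response was next set beside that to 20E. Both hormones were compared with the same DMSO libraries, so their fold changes share that error, and the test of the difference is JH3 against 20E in limma. In that test 501 genes (5.34%) differed, 135 of them higher in JH3 (1.44%) and 366 lower (3.90%), while 20E against DMSO gave 313 calls (3.34%), 243 higher (2.59%) and 70 lower (0.746%). Mef2, Smox, foxo and Pax rose in JH3 and had log2 fold changes of -0.25, -0.22, -0.10 and -0.28 in 20E that did not pass. The difference between the hormones was 1.0 ± 0.12, 1.07 ± 0.08, 0.94 ± 0.12 and 0.90 ± 0.09 for these genes (adjusted p = 1.48e-05, 2.58e-08, 2.35e-05 and 2.44e-06). Glut4EF (1.14 ± 0.16, adjusted p = 7.74e-05), meng (0.69 ± 0.12, adjusted p = 0.000915), wech (0.62 ± 0.09, adjusted p = 0.000132), Pino (0.70 ± 0.12, adjusted p = 0.000899), dnr1 (0.52 ± 0.09, adjusted p = 0.000679) and Vps25 (0.25 ± 0.05, adjusted p = 0.00673) were higher in JH3 than in 20E too. Among the falls Chsy, moody and ABCD were lower in JH3 than in 20E, by log2 differences of -0.64 ± 0.07, -0.68 ± 0.12 and -0.95 ± 0.13 (adjusted p = 1.27e-05, 0.00103 and 0.000105).

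Among the called genes with a symbol, klu, dsx and spri also passed in 20E against DMSO, with the opposite sign. klu fell in 20E (-0.67 ± 0.13, adjusted p = 0.00318), to 3.69 ± 0.805 FPKM, and dsx fell as well (-0.43 ± 0.11, adjusted p = 0.0392), to 2.47 ± 0.613 FPKM. spri rose in 20E (0.93 ± 0.15, adjusted p = 0.000875), to 22.5 ± 4.73 FPKM. The differences between the hormones were 1.95 ± 0.11 for klu, 0.93 ± 0.10 for dsx and -1.60 ± 0.14 for spri (adjusted p = 2.49e-09, 4.66e-06 and 2.18e-07). LOC105192284, which has no symbol and is named after its values were seen, had log2 fold changes of 0.59 in JH3 (adjusted p = 0.00802) and -0.65 in 20E (adjusted p = 0.00129).

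For other genes no difference between the hormones was called. Myc and tna had log2 fold changes of 1.0 ± 0.15 and 1.02 ± 0.15 in 20E, and JH3 differed from 20E by -0.17 ± 0.14 and -0.16 ± 0.13 (adjusted p = 0.598 and 0.606). Toll-6 and nab were at -0.81 ± 0.10 and -0.42 ± 0.08 in 20E, and differed by 0.06 ± 0.09 and -0.02 ± 0.07 (adjusted p = 0.745 and 0.906). Atg17, chinmo, mnb, Pdk1, Gat-a, Gprk1, rau and Gycalpha99B also missed the threshold of this test, with differences from -0.33 to 0.37. These p-values do not show that the hormones act alike. Traf4 rose in both and was lower in JH3 than in 20E (-0.67 ± 0.13, adjusted p = 0.00361). Ets98B rose in both and was higher in JH3 (0.44 ± 0.11, adjusted p = 0.0223).

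**Figure D4:**
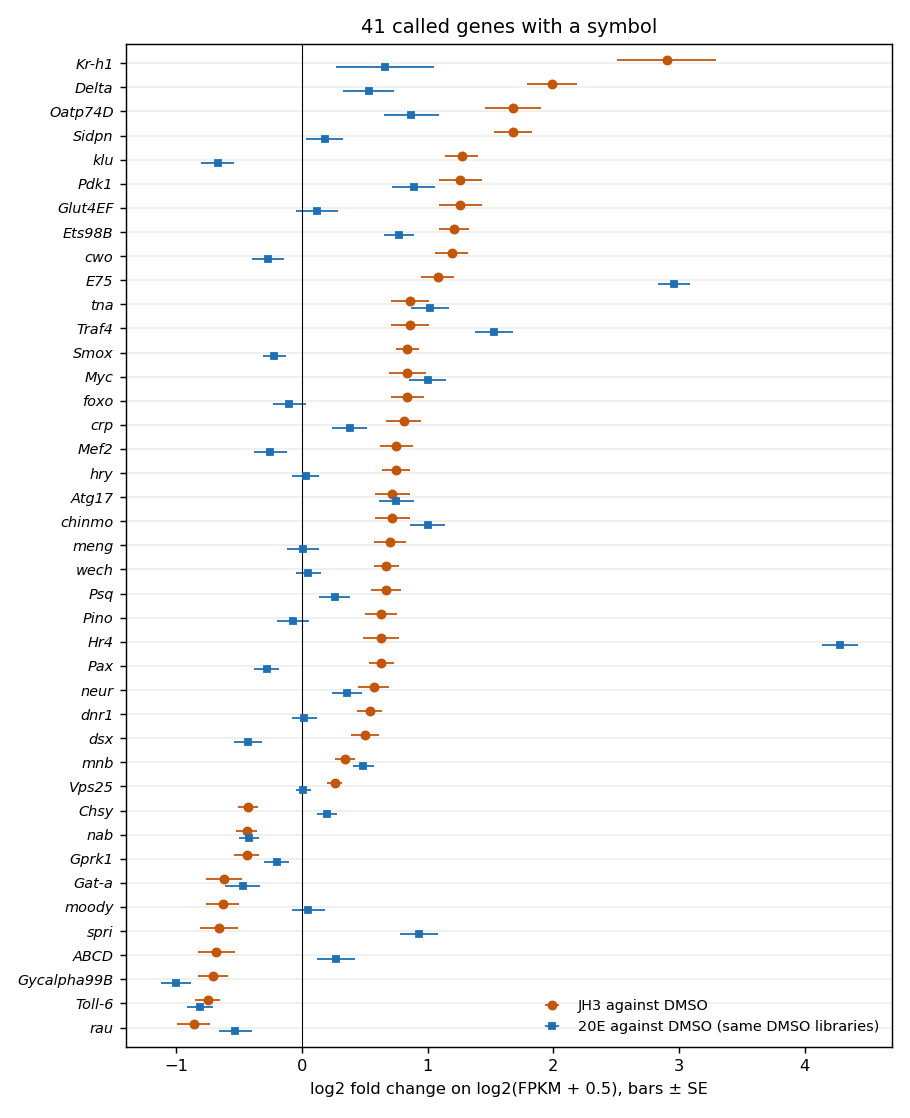
Log2 fold change on log2(FPKM + 0.5) with its SE (horizontal axis) of the 41 called genes with a symbol, ordered by the JH3 effect, for JH3 against DMSO (circles) and 20E against DMSO (squares), which share the DMSO libraries. The circles run from 2.90 at Kr-h1 to -0.86 at rau, and klu, dsx and spri have squares past the threshold on the other side of 0.

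Of the 32 gene lists 16 had no called member. Over all genes tested 0.927% were called, so the absence of a call does not set lists this short apart from the rest. Among genes of neuron function, none was called of 37 ion channel genes, 30 neurotransmitter receptor genes, 26 genes of neuropeptides and their receptors and 25 synaptic genes. The list medians were -0.03, -0.11, -0.12 and -0.04, with 4, 0, 4 and 0 members at an unadjusted p under 0.05 and none called by voom on reads. Without JH3 replicate 1 and 20E replicate 6, 1 ion channel gene, ClC-a, was called as lower, and no member of the other 3 lists was. The gene of the neuropeptide corazonin, which has been studied in this ant for its link to caste, was at 27.4 ± 8.84 FPKM in DMSO and 26.3 ± 6.12 in JH3 (Crz, log2 0.05 ± 0.21, adjusted p = 0.935). ClC-a, a chloride channel gene, was the nearest to a call among the ion channels with all libraries in the fit (-0.38 ± 0.10, adjusted p = 0.0784). Of 16 genes of neurotransmitter synthesis and transport Gat-a was the only call (median -0.15), and without those 2 libraries there was none. The axon guidance list (42 genes, median -0.02) had Toll-6 as its only call. The 5 activity-regulated genes had none, after Mef2, Myc, tna and Pdk1 were dropped from this list because they had been put there with their change known. Among the 5 Hr38, which neuron firing induces in insects, stood at 115 ± 44.6 FPKM in DMSO and 218 ± 109 in JH3 (0.64 ± 0.23, adjusted p = 0.342). The only clock gene called was cwo, 1 of 10 (median 0.01). No call was made among 30 genes of Wnt, Hedgehog, Hippo and JAK/STAT signalling, 24 heat shock genes, 5 detoxification genes, 16 cuticle genes, 30 proteasome genes, 68 translation factor and tRNA ligase genes and 2 ecdysteroid synthesis genes. From the cuticle list the called gene dsx had been dropped, with results known. The medians of these lists lay between -0.12 and 0.05, with 0 to 5 members at an unadjusted p under 0.05 and none called by voom. The markers of the eye (13 tested, median -0.18), fat body and haemolymph (8, -0.03), haemocytes (6, -0.12), trachea and epithelium (11, -0.07) and head glands and chemosensory organs (2, -0.12) had no call by limma or voom, with 0 to 2 members each at an unadjusted p under 0.05.

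**Figure D5:**
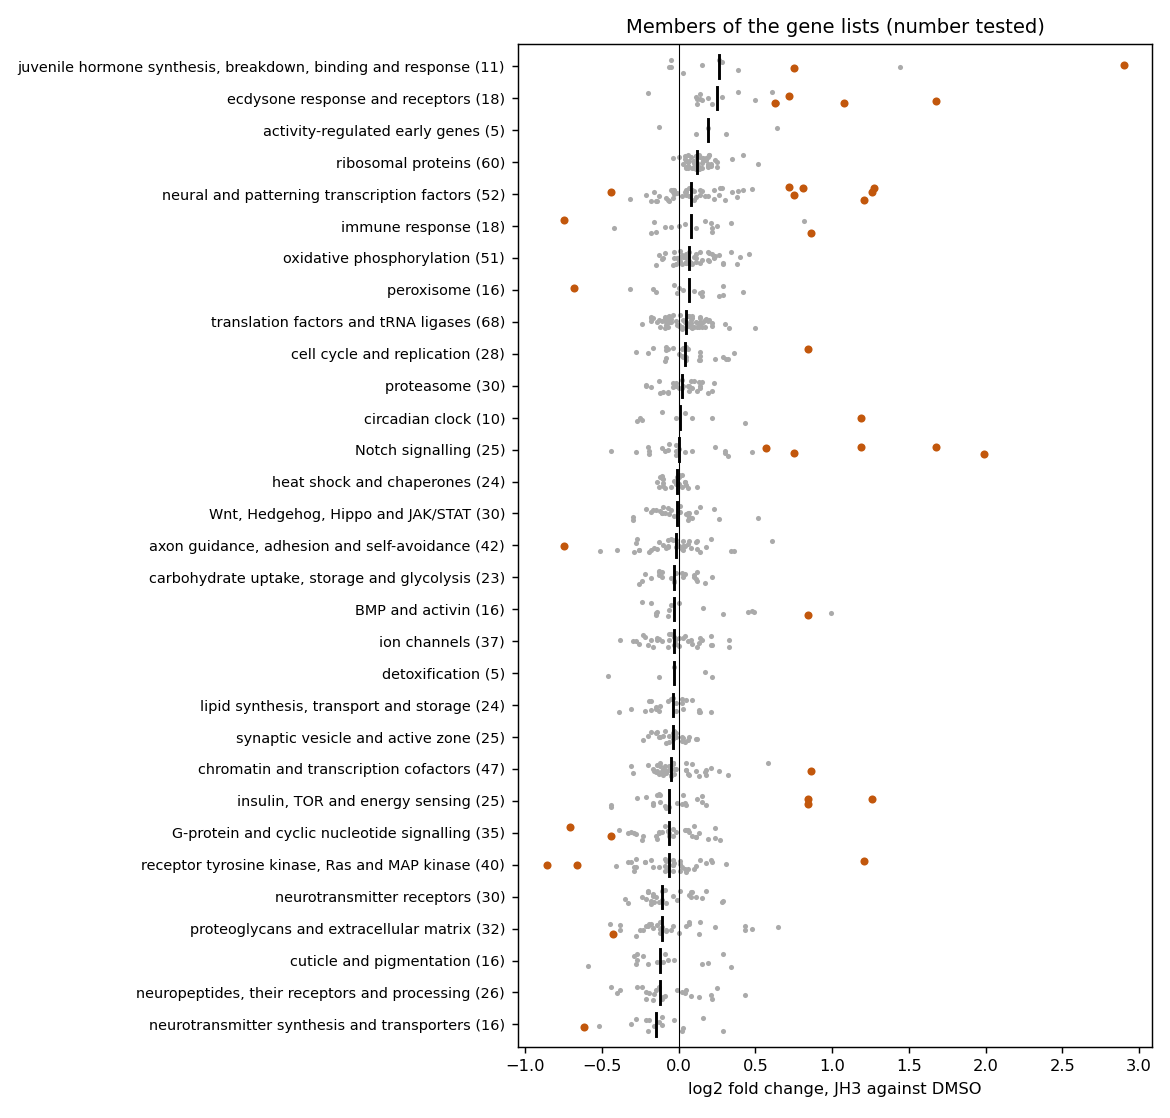
Log2 fold change, JH3 against DMSO (horizontal axis), of the tested members of 31 gene lists with at least 3 members; grey points are members without a call, coloured points called genes, and black bars the list medians. Called members lie mostly at the ends of their lists, and the medians lie between -0.15 and 0.26.

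Ribosomal protein genes moved little but nearly all to 1 side. Of the 60 tested, 58 had a log2 fold change above 0 with a median of 0.12, and none was called, with 1 at an unadjusted p under 0.05. The 51 oxidative phosphorylation genes had 41 above 0 and a median of 0.07, also without a call and with 2 at an unadjusted p under 0.05. Fold changes moved with gene length over the whole table. With the genes cut by length into 10 bins of about 938, the median was 0.098 in the shortest bin, -0.057 in bin 9 and -0.007 in the longest, and Spearman's rho across the 9381 genes, which are not independent replicates, was -0.21. After removal of this trend 55 ribosomal genes lay above 0 with a median of 0.07, and 35 oxidative phosphorylation genes with a median of 0.04. The called rises lay among long genes, with 20 of the 59 in the longest bin and 15 in bin 9. The called falls were spread over the bins, with 1 in the longest and 5 in bin 9. With the length trend removed 84 of the 87 calls were kept.

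Genes on both sides of the threshold had similar values. Just inside were LOC105190590 (log2 0.60, adjusted p = 0.0441), Gprk1 and LOC105189584 (-0.30, adjusted p = 0.0495). Just outside were zfh1, a homeodomain zinc finger factor gene (0.40, adjusted p = 0.0509), LOC112590228 (0.73, adjusted p = 0.0509) and noc, a zinc finger factor gene of head and tracheal development (-0.50, adjusted p = 0.0533). In noc the groups did not overlap, at 8.52 ± 0.999 FPKM in DMSO and 5.93 ± 0.711 in JH3. Of the 87 calls 49 were kept in every 1 of the 12 fits that left out a JH3 or DMSO library, 37 rises and 12 falls. Smox, Mef2, foxo, Myc, tna, crp, Psq, Pax, wech, dnr1, Traf4, klu, Glut4EF, Ets98B, Pdk1, nab, Toll-6, rau and Gycalpha99B were among the kept.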

How the data were processed

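The authors deposited FPKM values for 14001 genes and 19 libraries of poly(A) RNA from single brains (600 ng of total RNA, strand-specific dUTP libraries, per the labels' protocols). Per the submitters' processing notes the tools were bcl2fastq, STAR, featureCounts and DESeq2. Neither their versions nor a genome build or annotation is given in the sources used here, so no coordinates are printed. Symbols came from RefSeq (assembly Hsal_v8.6), which matched 13989 identifiers and left 12 without a match.

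The FPKM values fell on a grid from which whole reads were read back for 14001 of 14001 genes, within 0.02 of a whole number. These gave the depth, relative gene lengths and the reads for voom. Genes with FPKM of at least 1 in at least 5 libraries were kept. Values were taken as log2(FPKM + 0.5), so folds of low genes are understated. limma 3.58.1 in R 4.3.3 fitted 1 mean per group and the run label over all 19 libraries with a trended prior. P-values are two-sided with Benjamini-Hochberg adjustment over 9381 genes and a threshold of 0.05. The fit was also run on reads simulated independently for each library. These reads held no length trend and no library made to stand apart, so the simulation does not bear on those features. Tables and figures used Python 3.11.15, pandas 2.3.3 and matplotlib 3.10.9. The labels give single ants per library and nothing on colonies, so p-values measure the spread between these ants.

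The text names every called gene with a symbol, the 5 largest rises and 5 largest falls without one, and uncalled list members by smallest p. Members and lists were chosen with earlier results of these data known. Some list members were dropped after symbols were matched, with results known. The reasons included a wrong or unsure match and, for the activity-regulated genes, a change known when they were listed. Called genes were among those dropped, in the lists where this is stated. Lists are described by counts and medians, with no list test. The counts of every list stand beside 0.629% of all genes tested called as higher and 0.298% called as lower. Some genes, such as chinmo, hry, cwo and Myc, belong to more than 1 list, so the counts of different lists are not separate results. Alternatives changed the pseudocount, filter, scaling, tool, run term, replicate block, libraries, weights and length trend.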

Additional observations from a re-analysis of the deposited data

Results flagged for a closer look

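Among the 51 called genes named in the text, each tested for a library that stands apart within JH3 and within DMSO, 7 of 102 groups had such a library, all of them in JH3 (n = 7). By chance about 1 in 20 groups is marked in this way. In 3 genes the library was JH3 replicate 3, the lowest of the group. It had 1.75 FPKM of Ets98B (the next library 2.15), 9.79 FPKM of chinmo (next 14.5) and 14.5 FPKM of mnb (next 18.2). JH3 replicate 1 had the lowest level of dnr1, 24.0 FPKM (next 34.7), and the highest of wech, 48.3 FPKM (next 36.2). JH3 replicate 2 had 129 FPKM of LOC105180846, with the next library at 76.9. JH3 replicate 5 had 1.78 FPKM of LOC105187714, with the next at 0.934, and was the highest in a gene that fell.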

How the results depend on the processing

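The 87 calls (59 higher, 28 lower) became 151 (97 and 54) under scaling to total reads, 161 (110 and 51) after removal of the length trend, 180 (127 and 53) with library weights and 134 (93 and 41) without 20E replicate 6 and JH3 replicate 1. They became 49 (35 and 14) without the run term, 14 (13 and 1) in run 190514 alone and 8 (8 and 0) in run 200212 alone. Leaving out 1 library gave 60 to 137 calls, 42 to 87 higher and 15 to 50 lower. The highest count came without 20E replicate 6, with 50 lower, and removal of DMSO replicate 2, 4 or 5 left 16, 15 or 17 lower genes. Of the 87 calls, 85 were kept by voom, 84 with library weights, 83 with total reads and 69 with the JH3 and DMSO libraries alone. JH3 against 20E (501 calls, 135 higher and 366 lower) gave 313 (89 and 224) without the run term, 169 (53 and 116) and 160 (45 and 115) within the runs and 788 (263 higher) with weights. Leaving out 1 library gave 414 to 569, 112 to 169 and 302 to 428 in the same order. The term for a JH3 effect that differs by run had 0 calls under every alternative fitted, with 222 to 1044 genes at an unadjusted p under 0.05. It was not run for voom, the replicate block, no run term or single runs. Deviations of same-numbered JH3 and DMSO libraries had correlations of -0.177, 0.323, -0.181, -0.25 and -0.378. The deviations were taken from means of only 2 to 4 libraries, so these values cannot show whether the replicate numbers pair the libraries. The replicate block gave 96 calls (61 higher, 35 lower), 74 of them among the 87, and 531 for JH3 against 20E. Of 1776 values of the called named genes, 1531 kept their call, 245 lost it and 0 reversed. Of 1357 values of the 39 uncalled named genes, 43 gained a call, in 13 genes, most often loco, sgl and ClC-a (7 of 36 settings each). Crz (0.05, uncalled) turned to -0.02 by voom, -0.03 without the run term, -0.18 in run 190514, -0.01 without 20E replicate 6 and JH3 replicate 1, -0.07 with weights, and -0.04 with the length trend removed, and ran from -0.06 to 0.15 without single libraries. Amph and Npc1a, uncalled list members, turned to 0.03 and 0.01 in run 190514. The cause of these changes was not tested. With 2 to 4 libraries per group and run, single runs have few libraries. The median SE of 0.13 on the log2 scale limits what the other genes could show.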
